A study of Mus musculus with 15 samples.

Results

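The 146 barcodes described here were the microglia-like cells with the highest summed level of Cst7, Ccl6, Ccl9, Capg, Lpl and Lsp1 in a single-cell library made from mice with a microglial deletion of Atg7. Barcodes with at least 500 detected genes, at most 10% mitochondrial UMIs (unique molecular identifiers, each standing for 1 captured transcript) and at least 2000 UMIs were eligible. Each eligible barcode was scored by its UMIs of the 6 genes per 10000 UMIs, and the top 2% by score became members. They were 146 of 7298 eligible barcodes and of 9840 barcodes in that library, and the series held 16473 barcodes in its 2 single-cell libraries. The comparison set was the other 7152 eligible barcodes of the same library. Because the 6 genes chose the members, their levels are given only as a description.

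The cKO library came from ATG7FF;Cx3cr1CreER mice and the control library from ATG7FF mice, which carried the floxed alleles without Cre. All were C57BL/6 mice given 1.5 mg of tamoxifen when 2 months old and sampled 6 months later, at 8 months. Microglia of 4 cKO or 3 control forebrains were pooled into 1 library per genotype after sorting CD11b-high, CD45-low cells, so single mice cannot be told apart and no single-cell value has a replicate. Cre was driven from the Cx3cr1 gene, which other macrophages also use. Bulk forebrain libraries came from Cx3cr1CreER;ATG7FF;5xFAD mice (7 libraries, cKO) and ATG7FF;5xFAD mice (6 libraries, control) of the same strain, age and tamoxifen dose, which in addition carried 5xFAD, human transgenes with familial Alzheimer's disease mutations that cause amyloid plaques.

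Microglia are the resident macrophages of the brain, and they survey tissue through receptors such as P2RY12 and CX3CR1. Near amyloid or injury they can lower these homeostatic genes and raise a programme that includes Cst7, Lpl, Apoe, Lgals3 and cathepsins, known as the disease-associated state. ATG7 is the E1-like enzyme needed to attach LC3-type proteins to the autophagosome membrane, and autophagy feeds damaged organelles and proteins to the lysosome.

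Ccl6, which encodes a C-C chemokine, set the choice of members. It supplied 1446 of the 2512 score UMIs in members (57.6%), and a share of at least 0.5 of the score in 103 of the 146. Lsp1, an actin-binding leukocyte protein, supplied 14.1%, the chemokine Ccl9 10.1%, the actin-capping gene Capg 7.96%, lipoprotein lipase (Lpl) 5.45% and cystatin F (Cst7) 4.90%. The 137 Lpl UMIs lay in 23 members and the 123 Cst7 UMIs in 52. No UMI of a gene in a droplet does not show that the cell lacked its transcript, so these counts do not give the number of cells that expressed Lpl or Cst7. The barcodes are called members below. Scores ran from 20.5 to 66.5 UMIs per 10000 in members (median 26.8), against 0 to 20.4 in the others (median 3.32). At the threshold there was no gap: the 5 members just inside scored 20.5 to 20.9 and the 5 barcodes just outside 20.2 to 20.4.

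Members had a median of 5492 UMIs and 2298 detected genes, against 4883 UMIs and 2189 genes in the others, and a median mitochondrial share of 1.04% against 0.968%. Microglial markers were high in both sets: the 10 markers, among them P2ry12, Tmem119 and Cx3cr1, summed to 24578 CPM (UMIs of a gene per 1000000 UMIs of its set) in members and 25251 CPM in the others. Among markers of other cells, those of neutrophils summed to 199 CPM in members and 195 CPM in the others, of astrocytes to 169 CPM in members and 180 CPM in the others, of oligodendrocytes to 65.9 CPM in members and 84.6 CPM in the others, and of endothelial cells to 65.9 CPM in members and 50.5 CPM in the others. Csf3r gave all of the neutrophil UMIs in members, and 9 of that list's 10 genes were at 0 there. Border macrophage markers summed to 15.6 CPM in members and 16.4 CPM in the others, but their genes differed: Mrc1 gave 1 UMI in members and 488 in the others (ratio 0.0916, 0.00231 to 0.513), while Pf4 gave 5 UMIs in members and 15 in the others (ratio 14.9, 4.24 to 43.1) and Ms4a7 5 in members and 29 in the others (ratio 7.71, 2.33 to 20.1). Of these, Mrc1 lies on chromosome 2. The sums were, for dendritic cell markers, 7.19 CPM in members and 3.56 CPM in the others, and for neuron markers, 2.40 CPM in members and 4.47 CPM in the others. T and NK cell markers were at 0 in members and at 0.295 CPM in the others. Monocyte markers summed to 43.1 CPM in members and 13.5 CPM in the others, of which S100a4 gave 34.7 CPM in members and 5.12 CPM in the others, and 9 of the 12, Ly6c2 and Chil3 among them, were at 0 in members. B cell markers summed to 550 CPM in members and 321 CPM in the others, mostly from Ighm, while 3 of the 5 were at 0 in members. The part of these markers in the results below was not tested, beyond an alternative given beside the chromosome result. Atg7 itself gave 16 UMIs in members (19.2 CPM, exact Poisson 95% interval 11 to 31.1), 645 in the other cKO barcodes (17.3 CPM) and 15 in eligible control barcodes (11.5 CPM, 6.45 to 19). The libraries read the 3′ end of transcripts and no source used here names the deleted exons, so these reads check neither the deletion nor the label. Cx3cr1 stood at 2209 CPM in members, 2830 CPM in the other cKO barcodes and 5136 CPM in eligible control barcodes. Only the cKO mice carried Cx3cr1CreER, so for this gene the driver and the deletion cannot be told apart between libraries. Libraries shared 22 barcode sequences, none of them in a member.

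Genes of chromosome 2 were lower in members along the whole chromosome. Genes were compared as summed UMIs scaled to CPM in each set, with exact 95% intervals that cover counting error only, for the 3490 genes whose mean CPM over both sets was at least 50, the 6 rule genes left out. Of these, 101 were at least 1.5-fold higher in members (2.89% of genes) and 255 at least 1.5-fold lower (7.31%), with a median log2 ratio of −0.03. On chromosome 2, 127 of 204 measured genes were past 1.5-fold lower (62.3%), 0 were past 1.5-fold higher, and 202 had a ratio below 1. The median log2 ratio on chromosome 2 was −0.66, with quartiles of −0.89 and −0.49. On all the other chromosomes together, 128 of 3286 genes were past 1.5-fold lower (3.90%), 101 past 1.5-fold higher, and the median was −0.01. Medians of the other 19 nuclear chromosomes apart from Y lay between −0.08 and 0.06.

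**Figure D1:**
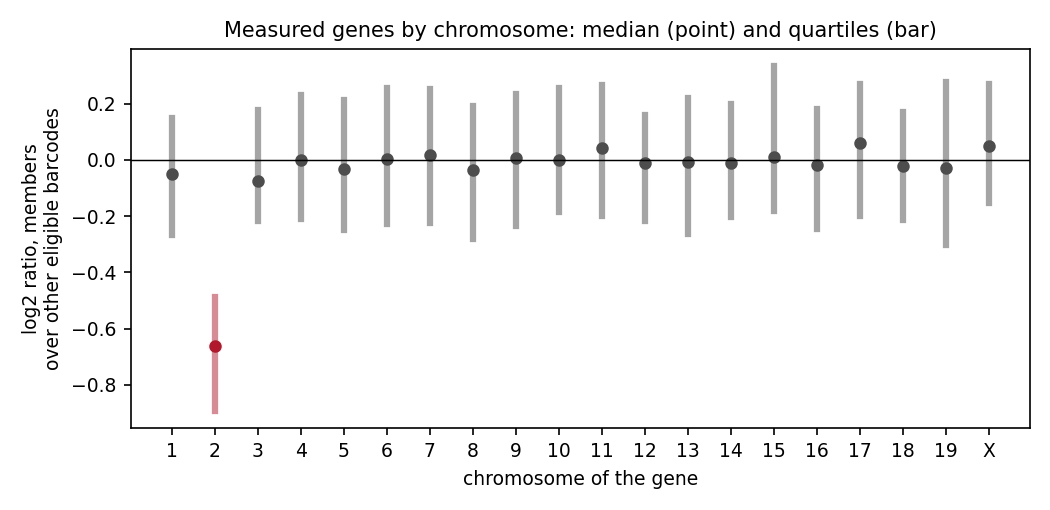
Log2 ratio of CPM, members over other eligible barcodes of the cKO library, for measured genes by chromosome (points are medians over genes, bars run from the lower to the upper quartile). Chromosome 2 has a median of −0.66, while the other chromosomes shown have medians between −0.08 and 0.06.

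In 19 consecutive windows of 10 Mb, each with 2 to 32 measured genes, every median log2 ratio lay between −0.94 and −0.50. The 2 windows with at least 20 genes had medians of −0.69 and −0.60. The measured genes spanned chr2:4017717-181693977 on GRCm38. Many genes of unrelated function were lower together there. Serinc3, a membrane protein that is strongly expressed in homeostatic microglia, stood at 1096 CPM in members and 2184 CPM in the others, a ratio of 0.502 (0.470 to 0.536). Ptgs1, which encodes cyclooxygenase 1, stood at 302 CPM in members and 656 CPM in the others, a ratio of 0.460 (0.404 to 0.521). Pmepa1, an antagonist of TGF-beta signalling, stood at 458 CPM in members and 1134 CPM in the others, a ratio of 0.404 (0.364 to 0.446). The cathepsins Ctsz and Ctsa had ratios of 0.641 and 0.631, and B2m, the light chain of MHC class I, of 0.776. Cst3, also on chromosome 2, stood at 47093 CPM in members and 47980 CPM in the others. Its ratio of 0.982 (0.972 to 0.991) was close to 1, and its level lies above the 1000 CPM limit of the index described below.

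A chromosome 2 index was computed for each barcode to see how this lower level was distributed over cells. It is the UMIs of 656 chromosome 2 genes with 10 to 1000 CPM over those of such genes on the other autosomes, divided by the same ratio in the other eligible barcodes, so that 1 is their level. Summed over members it was 0.623, and the same index for the other autosomes and X ran from 0.960 to 1.10. Per barcode the lowest, median and highest index was 0.401, 0.546 and 1.16 in members, against 0.420, 1 and 1.9 in the others. Most values fell into a cluster near 0.5 or another near 1, with few between. A small group of the others lay higher. Bins of 0.05 starting at 1.35, 1.4, 1.45 and 1.5 held 4, 9, 16 and 9 of them. The same bins held 0 eligible control barcodes. Taking 0.75 as the dividing line, 114 of 146 members (78.1%, Clopper-Pearson 95% interval 70.5 to 84.5) had a lower index, against 145 of 7152 other barcodes (2.03%, 1.71 to 2.38). Within 0.05 of the line lay 6 members and 57 others. For each of the other chromosomes, 0 to 9 members fell under the same line. The index rests on a median of 156.5 chromosome 2 UMIs in members and 227 in the others. Thinned to 2000 UMIs each, 112 of 146 members (76.7%) and 221 of 7152 others (3.09%) were under the line. DNA was not measured, so the number of copies of the chromosome in these cells is unknown.

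The share of barcodes with a low index went down with the score. Among members it was 88.9% for ranks 1 to 36, 89.2% for ranks 37 to 73, 81.1% for ranks 74 to 110 and 52.8% for ranks 111 to 146. Among the others it was 27.9% for ranks 147 to 365, 9.32% for ranks 366 to 730, 2.19% for ranks 731 to 1460, 1.10% for ranks 1461 to 3649 and 0.274% for the lowest 3649 barcodes. Median UMIs in these ranges lay between 4730 and 5612. Over all eligible cKO barcodes, 259 of 7298 (3.55%, 3.14 to 4) had an index under 0.75, against 1 of 511 eligible control barcodes (0.196%, 0.00495 to 1.09) with the index taken relative to the control library itself. After thinning to 2000 UMIs the counts were 333 of 7298 cKO barcodes (4.56%) and 3 of 511 control barcodes (0.587%). The control share depended on depth: at 1000 UMIs or more it was 131 of 5655 (2.32%, 1.94 to 2.74), with a median of 67 chromosome 2 UMIs. With barcodes of at least 1000 UMIs thinned to 1000 in both libraries, a setting chosen after seeing the data, 631 of 8331 cKO barcodes (7.57%, 7.01 to 8.16) and 290 of 5655 control barcodes (5.13%, 4.57 to 5.74) were under the line, at a median of 46 chromosome 2 UMIs. Each genotype has 1 library, and these values describe the 2 libraries.

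**Figure D2:**
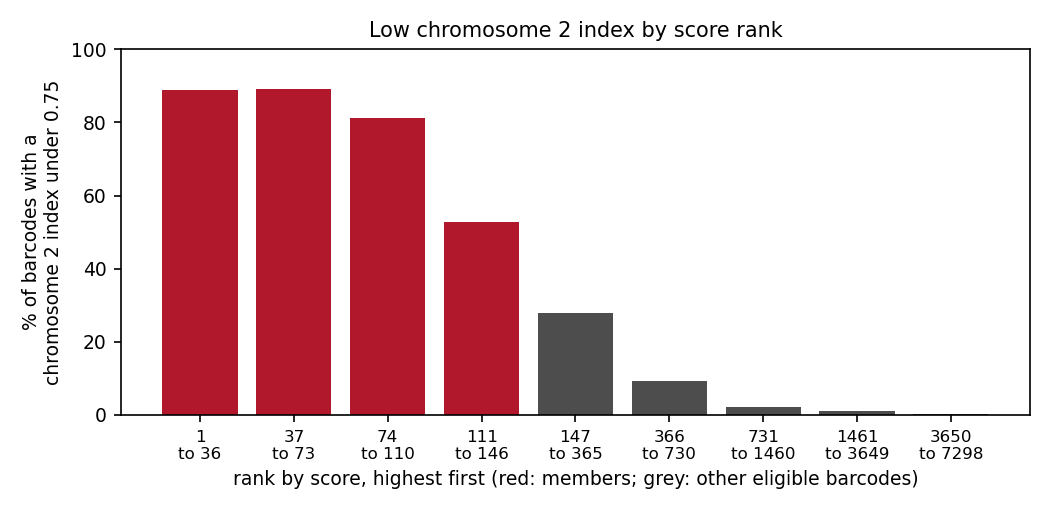
Percent of eligible cKO barcodes with a chromosome 2 index under 0.75 (bars) by rank of the score, highest first. Bars of members stand between 52.8% and 89.2%, and bars of the other barcodes between 27.9% and 0.274%.

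The share of members with a low index depended on the genes scored. When members were chosen without Ccl6, 39.0% of them had a low index, and without Cst7, itself a gene of chromosome 2, 77.4%. When barcodes with at least 2 UMIs of other immune cell markers were left out before the choice, the median log2 ratio of chromosome 2 genes was −0.20 and 15 of 43 members (34.9%) had a low index. That filter left 2138 of 7298 eligible barcodes and 22 of the original members, since Ighm, Csf3r and Cd79b had UMIs throughout the library. With those 3 genes not counted, a setting chosen after seeing the data, 7087 barcodes were left and 111 of 142 members had a low index.

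Chemokine genes were among the highest genes off chromosome 2. Ccl3 (chr11:83647844-83649355), which encodes MIP-1 alpha, stood at 678 CPM in members and 145 CPM in the others, a ratio of 4.67 (4.28 to 5.10). Per barcode its lowest, median and highest level was 0, 2.01 and 128 UMIs per 10000 in members, against 0, 0 and 69.5 in the others. Ccl4 (chr11:83662584-83664683), which encodes MIP-1 beta, stood at 472 CPM in members and 119 CPM in the others, a ratio of 3.96 (3.56 to 4.39), and its highest level was 148 per 10000 in a member and 130 in another barcode. The ranges of members and others overlapped for both genes. Ccl12, a ligand of CCR2, had a ratio of 1.63 (1.4 to 1.89). Il1a, which lies on chromosome 2, had a ratio of 0.541. Of the 17 chemokine and cytokine genes listed, 5 were measured, with a median log2 ratio of 0.71. Of these 5, 3 were past 1.5-fold higher and 1 lower, where 2.89% of all genes were higher and 7.31% lower. Tnf, below the expression limit, stood at 41.9 CPM in members and 29.9 CPM in the others.

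Antigen presentation genes differed within their group. Cd74, the invariant chain that guides MHC class II, stood at 132 CPM in members and 27.6 CPM in the others, a ratio of 4.77 (3.88 to 5.81). H2-DMa and H2-DMb1, which load peptides onto MHC class II, were lower, with ratios of 0.587 and 0.659. These were the 3 measured genes of 7 listed. The chain genes H2-Ab1 and H2-Aa were below the expression limit but higher with Cd74: H2-Ab1 stood at 51.5 CPM in members and 8.95 CPM in the others, a ratio of 5.76 (4.09 to 7.92), and H2-Aa at 16.8 CPM in members and 2.33 CPM in the others, a ratio of 7.19 (3.78 to 12.7). Cd74 was at 0 in the median member and reached 20 UMIs per 10000 in the highest, against 88.5 in the highest other barcode. Of 8 measured MHC class I genes 0 were past 1.5-fold, with a median log2 ratio of 0.35. H2-K1 had a ratio of 1.49, H2-D1 of 1.45 and the immunoproteasome gene Psmb8 of 1.45, while B2m was lower.

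Of 12 measured glycolysis genes 4 were past 1.5-fold higher and 2 lower, with a median log2 ratio of 0.43, where 2.89% of all genes were higher and 7.31% lower. Gapdh stood at 1137 CPM in members and 509 CPM in the others, a ratio of 2.23 (2.09 to 2.38), and the median barcode held 9.43 UMIs per 10000 in members and 4.21 in the others. Tpi1 had a ratio of 1.91, Pkm of 1.69 and Pgk1 of 1.65. Hk2, a hexokinase, and Pfkfb3, a regulator of phosphofructokinase on chromosome 2, were lower, with ratios of 0.628 and 0.506. Mif, a cytokine also measured outside this group, stood at 218 CPM in members and 106 CPM in the others. Mpc1, a subunit of the mitochondrial pyruvate carrier, stood at 576 CPM in members and 316 CPM in the others. Gapdh has near-identical copies in the genome, so its counts are uncertain.

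The remaining genes with the largest ratios came from several functions. Ank, a transporter of pyrophosphate and of the disease-associated list, had a ratio of 4.35 (3.43 to 5.45). Cdkn1a, which encodes the cell cycle inhibitor p21, stood at 186 CPM in members and 78.4 CPM in the others, a ratio of 2.37 (2.00 to 2.78). It was the only gene past 1.5-fold of the 5 measured cell-cycle arrest and p53 target genes, where 2.89% of all genes were higher. The median log2 ratio of the 5 was 0.05, and Cdkn2a, p16, had 1 UMI in members. The immediate early gene Fosb had a ratio of 2.20, the stress response gene Nupr1 of 2.36 and the metallothionein Mt1 of 1.99. The surface protein genes Cd52 and Ly6e had ratios of 2.2 and 1.9, and Ighm of 1.75. Ratios of AW112010, Pafah1b3, Grap, Rnase6, Selenow, Ramp1, Ndufa3, Srgn, Dap and Klhdc8b lay between 1.77 and 2.83. Ratios of all 25 of these highest genes, the chemokines, Cd74, Gapdh, Tpi1, Mif and Mpc1 included, had intervals that began above 1.5, and 0 of the 25 lay on chromosome 2. The 25 were ranked by that bound, and 0 chromosome 2 genes were past 1.5-fold higher, so both statements describe the choice. The expression limit used the mean CPM of both sets. Cd74, Ank, AW112010, Pafah1b3, Rnase6, Selenow, Dap and Klhdc8b were under 50 CPM in the others and passed the limit only through their level in members. When barcodes with at least 2 UMIs of other immune cell markers were left out, 15 of the 25 were no longer past 1.5-fold. Ratios were 1.05 for Ank, 1.10 for Srgn, 1.13 for Mpc1 and 1.31 for Cd52. Ighm, at 1.04, is itself counted by that filter, which limits its level in every barcode kept. With Ighm, Csf3r and Cd79b not counted in that filter, all 25 were past 1.5-fold.

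**Figure D3:**
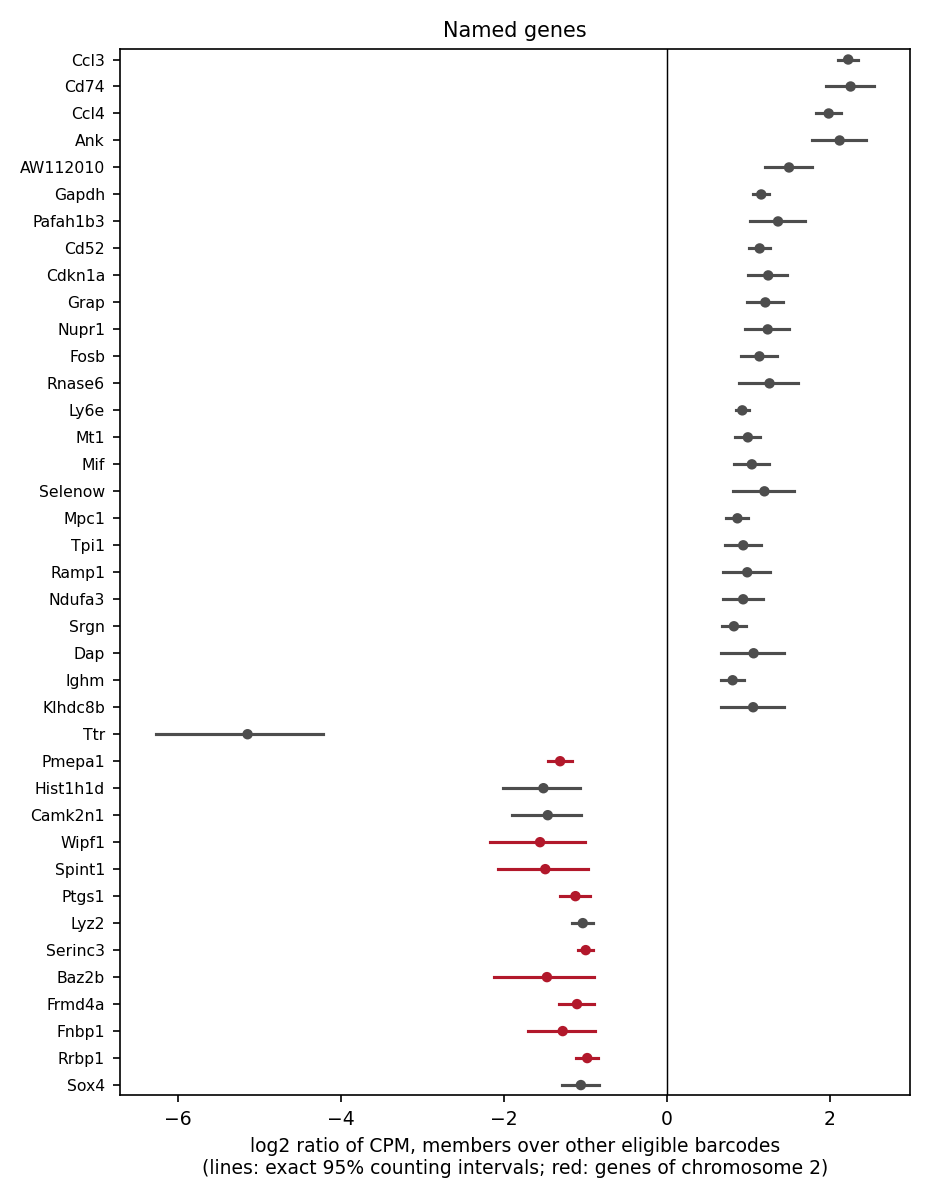
Log2 ratio of CPM, members over other eligible barcodes, for genes among the 25 with the highest and the 15 with the lowest ratio by the interval bound nearest to 1 (points, with exact 95% counting intervals as lines). The genes of chromosome 2, drawn in red, are all among the lowest.

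Of the 15 lowest genes, 10 lay on chromosome 2, with log2 ratios between −1.56 and −0.98. They included Pmepa1, Wipf1, Spint1, Ptgs1, Serinc3, Baz2b, Frmd4a, Fnbp1 and Rrbp1. The other 5 were Ttr, Lyz2, Sox4, Camk2n1 and the linker histone gene Hist1h1d. Lyz2, the macrophage lysozyme, stood at 631 CPM in members and 1290 CPM in the others, a ratio of 0.489 (0.448 to 0.533). Sox4, a transcription factor, had a ratio of 0.481 (0.409 to 0.563), Camk2n1, an inhibitor of CaMKII, of 0.363 and Hist1h1d of 0.350. Ttr, which encodes the thyroid hormone carrier of choroid plexus, gave 9 UMIs in members, 1 in each of 9 barcodes, against 14214 UMIs in the others, of which 20 barcodes held 96.3%. Its ratio of 0.0283 therefore describes those 20 barcodes.

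State genes did not move as one block. For each list in this paragraph the background is that 2.89% of all measured genes were past 1.5-fold higher and 7.31% lower. Of 36 genes listed for the disease-associated state 17 were measured, 2 past 1.5-fold higher (Ank and Cd52) and 2 lower (Lyz2 and Ctsz), with a median log2 ratio of 0.22. Apoe stood at 786 CPM in members and 530 CPM in the others, a ratio of 1.48, Ctsd at 9370 CPM in members and 6865 CPM in the others, a ratio of 1.36, and Trem2 had a ratio of 1.09. Of the 26 homeostatic genes, all measured, 0 were past 1.5-fold higher and 4 lower, Serinc3, P2ry6 and Entpd1 among them, with a median of −0.12. P2ry12 had a ratio of 1.13, Tmem119 of 0.917, Sall1 of 0.736 and Slc2a5 of 1.38. Among pathways tied to autophagy and its cargo, 6 of 11 autophagy receptor genes were measured, 0 past 1.5-fold, and Sqstm1, which encodes p62, had a ratio of 1.21. Of 32 measured lysosome genes 0 were higher and 2 lower, both on chromosome 2, with a median of −0.10. Of 11 measured NRF2 targets 1 was past 1.5-fold higher (Txn1, 1.58) and 1 lower (Blvrb, 0.599), and the iron store gene Fth1 had a ratio of 1.49. Of the 12 measured actin, annexin and S100 genes 11 had a ratio above 1, led by thymosin beta 4 (Tmsb4x), at 17374 CPM in members and 11525 CPM in the others. Lists of lipid handling, type I interferon, NF-kB regulators, Trem2 signalling, endoplasmic reticulum chaperones and immediate early genes had medians between −0.21 and 0.0052. Of 16 proliferation genes 3 were measured (Stmn1, Hmgb2 and Tubb5), with a median of 0.15. Below the expression limit, Top2a had 0 UMIs in members and 414 in the others (11.1 CPM). Mki67 had 2 UMIs in members and 443 in the others (ratio 0.202, 0.0244 to 0.733), and Cenpf 2 in members and 369 in the others (ratio 0.242, 0.0292 to 0.882). The Mki67 UMIs lay in 1 of 146 members and 76 of 7152 others, so its ratio describes few barcodes. Mcm3, Mcm5 and Mcm6 had ratios of 1.14, 1.73 and 1.59, with intervals that held 1. The remaining listed proliferation genes below the limit had ratios below 1.

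Members and other barcodes were then split by the index and set against the 7007 other barcodes with an index of at least 0.75, with chromosome 2 genes left out. The 114 low-index members are most of the set in which the 25 highest genes were chosen, so that all 25 were past 1.5-fold in them describes the choice and is read no further (6.03% of all genes were higher and 6.86% lower). Of the same 25, 23 were past 1.5-fold in the 145 barcodes that had a low index and were not members, where the background was 2.71% higher and 2.98% lower. Ccl3 was at 688 CPM in low-index members, 583 CPM in low-index others and 135 CPM in the 7007 others, and Cdkn1a at 197 CPM in low-index members, 205 CPM in low-index others and 75.6 CPM in the 7007. Lyz2 had a ratio of 0.312 in low-index members and of 0.439 in low-index others. The median of the 25 ratios was 2.47 in low-index members and 1.88 in low-index others. The low-index others were not chosen by the 6 genes, but their median score was 12.8, against 3.24 in the 7007.

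**Figure D4:**
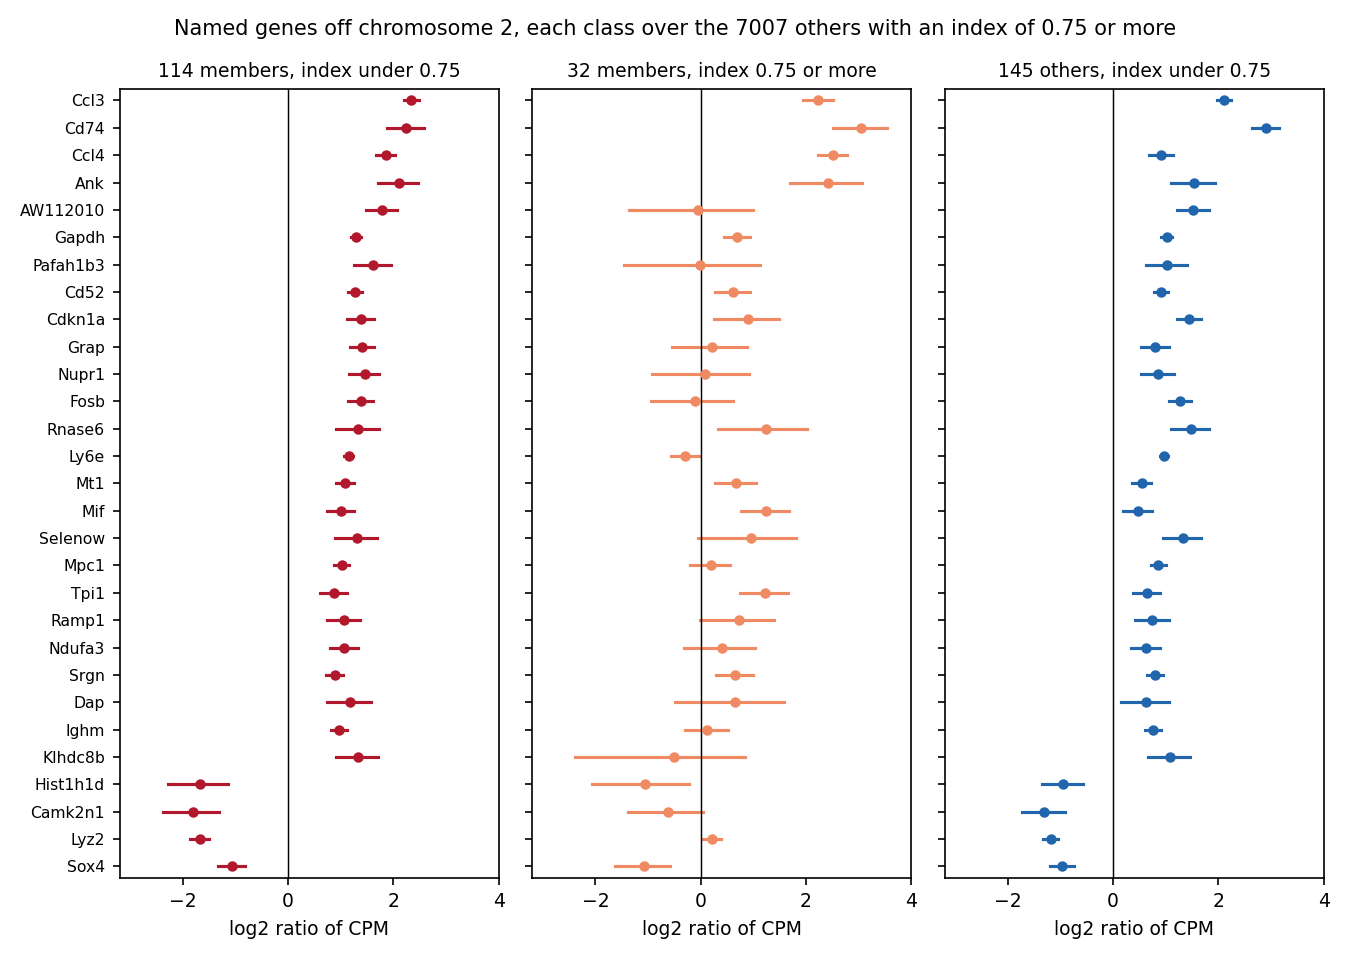
Log2 ratio of CPM with exact 95% counting intervals for the named genes off chromosome 2, Ttr left out, in 3 classes of cKO barcodes, each over the 7007 other barcodes with an index of 0.75 or more. The genes from Ccl3 to Klhdc8b lie above 0 in both low-index classes, while 5 of them lie below 0 in the 32 members with an index of 0.75 or more.

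The 32 members with an index of at least 0.75 also took part in the choice of the 25 genes, so their values for these genes are a description. Of the 25, 15 were past 1.5-fold and 20 above 1 in them (8.07% of all genes were higher and 7.28% lower), and only 169270 UMIs stood behind these values. Ccl3, Ccl4, Cd74 and Ank remained far above 1, with ratios of 4.71, 5.71, 8.29 and 5.37. AW112010, Pafah1b3, Fosb, Ly6e and Klhdc8b had ratios below 1, of which only the interval of Ly6e (0.815) lay below 1. Lyz2 turned to 1.16. By the same ranking over this class, the leading genes included Tpi1 (2.35), Klf2 (2.23), Ftl1 (1.63) and the lysosomal and tetraspanin genes Ctsb (1.50), Cd63 (1.56) and Cd9 (1.44), all over the 7007 others. P2ry12 had a ratio of 0.726 and Tmem119 of 0.683 there, and the median log2 ratio was 0.50 over 16 disease-associated genes and −0.29 over 23 homeostatic genes, chromosome 2 left out. In low-index members the same medians were 0.25 over 15 genes and −0.03 over 23. All 35 Lgals3 UMIs in members lay in 4 of these 32 barcodes, 25 of them in 1 barcode. The gene encodes galectin 3 and was at 0 UMIs in the 114 low-index members. S100a4 gave 27 UMIs in low-index members (40.6 CPM, 26.7 to 59.0). It gave 2 in the remaining 32 (11.8 CPM, 1.43 to 42.7), and these intervals overlapped.

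Cck, which encodes cholecystokinin, fell outside the rule for named genes because 1 barcode held 23.9% of its UMIs, and it is given after its values were seen. Its 109 UMIs in members (131 CPM, against 8.28 CPM in the others) lay in 17 barcodes, all with a low index. In low-index others it stood at 52.2 CPM, against 7.31 CPM in the 7007.

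The same rule was applied to the control library, where 11 of 511 eligible barcodes made up the top 2% with a lowest score of 17.8. Their summed chromosome 2 index was 0.978 and 0 of 11 were under 0.75, but they held only 27442 UMIs. In these 11, 9 of the 25 genes were past 1.5-fold higher, where the background was 31.4% of genes, and 8 of the 15 lowest genes past 1.5-fold lower, where it was 20.6%. With a limit of 1000 UMIs the control library gave 114 top barcodes of 5655, with an index of 0.996 and 2 under 0.75. In these 114, 5 of the 25 genes were past 1.5-fold higher, where the background was 6.09% of genes, and 1 of the 15 past 1.5-fold lower, where it was 6.46%. Cd52 had a ratio of 1.53, Ccl3 of 0.994 and Cdkn1a 1 UMI. Cd74 had a ratio of 66.5 from 146 UMIs, while the 11 barcodes above held 145. How these UMIs were spread over the 114 barcodes was not examined, so the ratio may describe few of them. Eligible control barcodes had a median of 2423 UMIs, against 5492 in members, and the part of this depth gap in the values was not tested. At or above the score of the lowest member stood 146 of 7298 cKO barcodes (2.00%, 1.69 to 2.35) and 5 of 511 control barcodes (0.978%, 0.318 to 2.27). The intervals overlapped, and with barcodes of 2000 to 3000 UMIs only the shares were 0.879% in cKO and 0.719% in control. With UMIs thinned to 2000 per barcode they were 2.12% (1.81 to 2.48) in cKO and 0.978% (0.318 to 2.27) in control. At 1000 UMIs or more they were 1.81% in cKO and 1.87% in control. The direction depended on the setting and the intervals overlapped in each. These values therefore settle no difference in share between the 2 libraries.

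Bulk RNA of 5xFAD forebrain gave the only replicated comparison and used samples that had no part in choosing the members. Libraries held 16658707 to 22355512 counts. Of 16956 genes tested with edgeR's quasi-likelihood test, 47 fell (0.277%) and 9 rose (0.0531%) in cKO at a Benjamini-Hochberg adjusted p under 0.05. Of the 25 highest genes 24 were tested, and 0 were called. Of these 24, 5 (20.8%) had an unadjusted p under 0.05, against 1308 of all 16956 genes (7.71%). Among the 5, Ccl3, Cd74, Gapdh and Cd52 had the lower level in cKO and Mif the higher. Gapdh ran from 4.92 to 152 CPM in control libraries and from 6.70 to 11.7 CPM in cKO libraries. Of the 15 lowest genes 14 were tested, and 0 were called, with 2 (14.3%) at an unadjusted p under 0.05. Ccl4 and Hist1h1d were too low to be tested. Microglia are few in whole forebrain and fewer cells cannot be told apart there from less RNA per cell, and 7 of the 10 microglial markers fell in cKO. The 10 include Cx3cr1, the gene that drives Cre in cKO mice alone.

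Ccl3, higher in members, had the lower level in cKO forebrain. Its lowest, median and highest values were 0.305, 0.854 and 1.87 CPM in 7 cKO libraries, against 1.58, 2.10 and 2.51 CPM in 6 control libraries. The ranges overlapped through cKO library 5 alone. Its log2 change was −1.18 ± 0.28 (SE, n = 7 and 6, adjusted p = 0.0836 by edgeR). DESeq2 called the fall, as did edgeR without a filter on low counts and edgeR without cKO library 5. Cd74 averaged 9.61 ± 1.47 CPM in cKO and 12.6 ± 2.73 CPM in control libraries (SD, n = 7 and 6, edgeR adjusted p = 0.439), and Cd52 1.78 ± 0.27 CPM in cKO and 2.59 ± 0.83 CPM in control libraries (SD, edgeR adjusted p = 0.481). Cdkn1a averaged 26.4 ± 6.52 CPM in cKO and 27.1 ± 5.43 CPM in control libraries (SD, edgeR adjusted p = 0.969). Lyz2, lower in members, averaged 28.8 ± 3.42 CPM in cKO and 23.2 ± 5.14 CPM in control libraries (SD), a log2 change of 0.32 with an edgeR adjusted p of 0.503, and was called higher when control library 5 was left out. Serinc3 averaged 317 ± 8.79 CPM in cKO and 321 ± 15.3 CPM in control libraries (SD, edgeR adjusted p = 0.914). Over the 252 tested genes that were past 1.5-fold lower in members the median log2 change was −0.03, against 0.00160 over all genes tested. Of the 252, 1 fell, where 0.277% of all genes tested fell. By edgeR, 25 of the 252 (9.92%) had an unadjusted p under 0.05, against 7.71% of all genes. The gene that fell was Tent5c, named after its values were seen, at 4.60 ± 0.89 CPM in cKO and 7.79 ± 2.03 CPM in control libraries (SD, log2 change −0.76 ± 0.15 SE, edgeR adjusted p = 0.0261). Of the 97 tested genes past 1.5-fold higher in members 0 were called by edgeR, with 7 (7.22%) at an unadjusted p under 0.05, a share near that of all genes.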

How the data were processed

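Members, gene lists and comparisons were chosen with earlier results of these data known. Per the file headers, the authors used Cell Ranger 6.1.0 to make the deposited UMI counts of the single-cell libraries (10x 3′ v3 per the labels' protocols, build mm10 per the submitters' processing notes). For the bulk libraries the submitters' processing notes list HISAT2 2.0.5, featureCounts 1.5.0-p3 and mm10, and the authors deposited whole-number read counts per gene. No source used here states the strand setting, so overlapping genes cannot be told apart.

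UMIs were summed over members and over other eligible barcodes and divided by each set's total (834923 UMIs in members, 37329687 in others) in Python 3.11.15 with NumPy 2.4.6 and SciPy 1.17.1. Ratios have exact conditional binomial intervals, sums exact Poisson intervals and shares Clopper-Pearson intervals, all at 95% and limited to counting error. Single-cell differences have no replicate check and no p-value, since each genotype has 1 library. Genes entered at a mean CPM of at least 50. Named genes were the 25 highest and 15 lowest by the interval bound nearest to 1, without genes of which 1 member held over 20% of the UMIs, plus genes of each of 30 lists farthest from 1 and any homeostatic or disease-associated gene. The chromosome 2 index used genes of 10 to 1000 CPM of which no barcode held over 2%. The index, its line at 0.75 and its alternatives were chosen after seeing the data. Positions are from GENCODE M21 on GRCm38. Doublets were not called, and 8 members (5.48%) lay in the top 5% of UMIs.

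Bulk counts were tested on genotype in R 4.3.3 with edgeR 4.0.16 (filterByExpr, TMM, robust quasi-likelihood F-test, two-sided, Benjamini-Hochberg over 16956 of 54532 genes). Log2 changes are cKO minus control. Since no label states that each library is 1 mouse, p-values cover only the spread among these libraries, which may be technical. No label says what libraries with the same replicate number share, so the numbers were not used as pairs in the main test. The procedures were tested on simulated data. Alternatives are in the closing section. Some genes counted among the named and listed genes are not reported here.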

Additional observations from a re-analysis of the deposited data

Results flagged for a closer look

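In the 76 groups of 5xFAD forebrain values examined (38 named genes, 7 cKO or 6 control libraries), 10 held a library far from the others of its group by Dixon's gap test at 95%, a test that chance passes in about 1 of 20 groups. The 10 came from 3 libraries. In cKO library 5 the highest values of the cKO group were Selenow at 421.8 CPM (the other 6 up to 326.7), Ramp1 at 61.0 CPM (up to 46.4), Klhdc8b at 35.1 CPM (up to 25.1) and Pmepa1 at 64.0 CPM (up to 54.0). Lyz2 in cKO library 3 was the lowest of its group at 21.7 CPM (the others from 28.3). In control library 5, Ank at 290.6 CPM (the others up to 274.1), Mpc1 at 30.1 CPM (up to 21.2), Spint1 at 5.44 CPM (up to 3.68) and Lyz2 at 33.4 CPM (up to 22.7) were the highest of the control group, and Tpi1 at 440.2 CPM the lowest (the others from 483.5). With cKO library 5 left out, 47 genes fell and 7 rose by edgeR, and with control library 5 left out, 30 fell and 5 rose, against 47 and 9 with all libraries.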

How the results depend on the processing

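Of 880 ratios of the 40 named genes over 22 alternatives, 708 stayed within their counting interval, 160 moved and 12 turned. The alternatives at 20 CPM, at 100 CPM and without chromosome 2 genes change only which genes are counted. Ratios of named genes could not move in them, and they are part of the 708. Genes past 1.5-fold higher, 101 in the comparison as reported, numbered 226 with the top 1% as members, 29 with the top 5%, 221 after thinning to 2000 UMIs, 246 at 20 CPM, 54 at 100 CPM, 301 without barcodes holding 2 or more UMIs of other immune markers, 67 without Ccl6 in the score and 281 with an index of at least 0.75 in both sets. Genes past 1.5-fold lower, 255 as reported, numbered 393 with the top 1%, 52 with the top 5%, 706 at 20 CPM, 90 at 100 CPM, 103 without Ccl6 and 128 without chromosome 2 genes. Lists with a median above that of all genes went to 7 at 100 CPM, against 11. The chromosome 2 median log2 ratio lay between −0.75 and −0.20 over 20 alternatives, with −0.20 under the immune marker filter. The percent of members with a low index was 89.0 with the top 1%, 47.9 with the top 5%, 34.9 under that filter and 39.0 without Ccl6. Few barcodes or genes remain in several of these settings, and otherwise the cause was not tested.

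Ratios turned to 0.904 for Fosb, 0.810 for Mt1, 1.01 for Ptgs1 and 1.08 for Baz2b under the immune marker filter. With an index of at least 0.75 in both sets they turned to 0.967 for AW112010, 0.998 for Pafah1b3, 0.926 for Fosb, 0.815 for Ly6e, 0.701 for Klhdc8b, 1.16 for Lyz2 and 1.02 for Rrbp1. The median of MHC class II genes turned to 0.83 at 20 CPM and 0.27 with an index of at least 0.75. The share at or above the lowest member's score was 0.879% in cKO among barcodes of 2000 to 3000 UMIs.

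In forebrain, 0 of the highest named genes fell as reported, against 1 (Ccl3) by DESeq2 and 1 without a count filter. Leaving out 1 library at a time gave 0 to 1, and 0 to 1 of the lowest named genes rose (Lyz2). The fit with the replicate number as a block called 19 genes lower and 1 higher, against 47 and 9, and 0 named genes. Same-numbered libraries correlated between −0.37 and 0.18 in their deviations, and 2 of 6 correlated best with their own number. These values do not settle whether the numbers pair the libraries. Without scaling factors edgeR called 45 lower and 11 higher. Depth limits the 32 members with an index of at least 0.75 and the 11 control barcodes most.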
